A study of Homo sapiens with 4 samples.

Results

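Histone lysine methyltransferases and demethylases, the enzymes that place and remove methyl groups on histone lysines, were followed as a family of 49 genes among 20037 protein-coding genes of chromosomes 1 to 22, X and Y. The family was a named list of 30 methyltransferase or SET domain genes and 19 demethylase genes, taken by symbol with no measured value in the rule, although it was proposed with earlier results of these data known, and all 49 symbols matched the RefSeq gene table. The cells were K562, an established human line from a chronic myeloid leukaemia in blast crisis. They had been given 1 uM daunorubicin, an anthracycline that binds between DNA bases and traps topoisomerase II on DNA, for 18 h, or had been left untreated. H3K27ac, acetylation of histone H3 lysine 27, was profiled by ChIP-seq in 1 library of each condition, and 1 input library without antibody was made for each. The series asks which enhancers daunorubicin induces and how these relate to drug resistance in acute myeloid leukaemia, and K562 stands in for leukaemia cells here as a single line. With 1 library per condition there was no replicate spread and no test, so every difference below separates 2 libraries and not 2 conditions.

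Methyl groups on histone lysines do not change the charge of the residue and act mainly through proteins that read them. Methylation of H3K4, H3K36 and H3K79 is found at transcribed genes, while methylation of H3K9 and H3K27 accompanies silencing. Each state is set by a writer, and many are reversed by an amine oxidase or Jumonji demethylase. H3K27ac itself is deposited by other enzymes, marks active promoters and enhancers, and cannot coexist with methylation on the same lysine. In leukaemia several of these genes are known as fusion partners, mutated tumour suppressors or drug targets.

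For every gene, the bases under H3K27ac peaks were summed over the annotated span and 50 kb on each side, and the sum is called its marked length. A peak was placed at the gene's own ends or start sites if it lay within 1 kb of them, at another gene's ends or start sites by the same distance, and otherwise was called distal. Listed start sites came from RefSeq promoters of GRCh38.p14 (hg38), which run from 250 bases before to 50 bases after the start. They covered 46 of the 49 genes, not SETD1B, NSD3 or DOT1L. The following 5 promoters, each 300 bases 5′ to 3′ on the gene's strand, show the range of H3K27ac found at the family's start sites. Capitals mark the GC box, the letters GGGCGG or their reverse complement CCGCCC, and the CCAAT box, the letters CCAAT or ATTGG. Of these, KDM3B had the highest peak score at a start site of the family in the untreated list (595) and SETD1A the highest in the daunorubicin list (406). When each gene is given its highest start-site score, SETDB2 had the lowest with daunorubicin (52) of the genes marked in both libraries, SMYD3 had the lowest without it (80), and KDM6B had no untreated peak within 1 kb of its listed starts. The score is the authors' own value for each peak and was used to rank peaks within 1 list. The stricter-score setting below is the exception, since it applies 1 value to both lists although their scores may differ in scale.
KDM3B, chr5:138352435-138352734, plus strand: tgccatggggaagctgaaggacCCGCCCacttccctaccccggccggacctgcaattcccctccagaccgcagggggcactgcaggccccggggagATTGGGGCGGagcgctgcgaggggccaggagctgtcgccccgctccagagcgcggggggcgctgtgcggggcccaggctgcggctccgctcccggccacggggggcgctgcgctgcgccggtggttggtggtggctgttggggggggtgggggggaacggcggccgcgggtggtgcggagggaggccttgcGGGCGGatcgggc
SETD1A, chr16:30957504-30957803, plus strand: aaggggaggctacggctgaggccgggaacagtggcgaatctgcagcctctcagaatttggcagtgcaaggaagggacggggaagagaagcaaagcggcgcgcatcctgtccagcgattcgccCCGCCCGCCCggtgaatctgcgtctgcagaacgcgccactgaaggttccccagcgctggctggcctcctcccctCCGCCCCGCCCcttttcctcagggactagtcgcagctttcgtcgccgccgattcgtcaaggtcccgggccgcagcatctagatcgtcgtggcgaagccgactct
SETDB2, chr13:49444024-49444323, plus strand: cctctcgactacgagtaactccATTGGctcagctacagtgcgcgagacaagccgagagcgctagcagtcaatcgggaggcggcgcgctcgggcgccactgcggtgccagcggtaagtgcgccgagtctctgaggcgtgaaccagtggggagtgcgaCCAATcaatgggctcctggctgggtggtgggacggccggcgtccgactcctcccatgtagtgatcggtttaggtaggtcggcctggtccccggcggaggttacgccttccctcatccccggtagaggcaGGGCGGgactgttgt
SMYD3, chr1:246507230-246507529, minus strand: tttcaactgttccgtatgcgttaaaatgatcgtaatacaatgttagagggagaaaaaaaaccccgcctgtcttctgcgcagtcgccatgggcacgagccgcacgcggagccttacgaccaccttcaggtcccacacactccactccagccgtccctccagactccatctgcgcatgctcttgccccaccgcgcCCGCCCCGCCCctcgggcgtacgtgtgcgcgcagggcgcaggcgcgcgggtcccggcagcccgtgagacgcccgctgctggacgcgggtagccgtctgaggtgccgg
KDM6B, chr17:7833967-7834266, plus strand: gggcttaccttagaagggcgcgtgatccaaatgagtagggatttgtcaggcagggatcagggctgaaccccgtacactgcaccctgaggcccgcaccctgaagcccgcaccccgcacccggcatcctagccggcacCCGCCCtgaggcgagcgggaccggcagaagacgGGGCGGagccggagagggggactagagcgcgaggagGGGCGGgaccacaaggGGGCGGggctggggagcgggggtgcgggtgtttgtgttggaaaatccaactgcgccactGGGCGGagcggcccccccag
The KDM6B promoter held 5 GC boxes, SETD1A 4, KDM3B 3, SMYD3 2 and SETDB2 1. KDM6B, with the weakest start-site mark of these, thus held the most. Among the others, KDM3B and SETD1A, with the higher scores, held more than SMYD3 and SETDB2. Over all listed promoters of the family, a GC box was present in 52 of 67, or 77.6%, against 45.0% of all 35116 promoters. CCAAT boxes were present in 22 of 67 (32.8%, all promoters 34.6%). The CACGTG E-box was present in 9 (13.4%, all promoters 7.26%). Letters TGACTCA or TGAGTCA of an AP-1 site occurred in 3 (4.48%, all promoters 4.95%), and AGATAA or TGATAA of a GATA site in 4 (5.97%, all promoters 16.3%), with both strands read for every motif. CCGGAAG of an ETS site occurred in 6 (8.96%, all promoters 10.3%). The family's promoters were also richer in G and C, with a median of 69% against 58.7% and a median of 30 CpG against 14.

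The daunorubicin list held 65118 peaks covering 57007975 bp and the untreated list 38626 peaks covering 35961808 bp, with median scores of 41 and 43. The depth of the libraries is unknown, and a deeper or better enriched library cannot be told apart here from a wider mark. The deposited inputs had 87 peaks with daunorubicin and 92 without, and 0 of either lay in the window of a family gene. Of 8 erythroid and progenitor genes used to check the K562 label, 7 had an end marked in both libraries, among them GATA1, TAL1 and KLF1. Among genes of lymphoid, liver and epithelial cells, CD3E and CD3D had an end marked in both, ALB had one only with daunorubicin, and PAX5, MS4A1, KRT5 and CDH1 had none.

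Listed start sites of the family carried H3K27ac in both libraries with 1 exception. Of the 46 genes with listed start sites, 45 were marked there in both libraries and KDM6B only with daunorubicin; among 15842 protein-coding genes with a listed start site, 60.7% were marked in both and 4% only with daunorubicin. Counted over annotated gene ends, which include 3′ ends and need no strand, 42 of the 49 genes had an end marked in both libraries, 1 only with daunorubicin and 0 only without it. Over all protein-coding genes those shares were 57.6%, 4.91% and 0.749%. The other 6 genes, SETD1B, NSD1, SETD3, KDM3A, KDM4C and PHF8, had no marked annotated end. All of these but SETD1B had a listed start site marked in both libraries, and SETD1B had 0 bp at its own ends in either library. The highest peak at the family's start sites lay at a median percentile of 93.1 of the daunorubicin list and 91.0 of the untreated list. For all protein-coding genes with a marked start site those medians were 88.2 and 85.0. Start-site peaks in the top 10% of their list were found at 31 family genes with daunorubicin, where 44.8% of all marked start sites had one, and at 23 without it, where 33.9% had one. The mark at these start sites differed little in length between the libraries. It covered a median of 1913 bp with daunorubicin and 1843 bp without, longer at 31 genes and shorter at 14 of the 45. Differences ran from -975 bp at KDM2A to 1477 bp at SMYD3. Over own ends and start sites, 33 of the 49 genes were longer and 15 shorter, with a median difference of 128 bp. Of the 11548 genes with an end marked in both libraries, 63.8% were longer there and 36.1% shorter, with a median difference of 100 bp. The family's counts were thus near the general share.

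Over the whole window, 47 of the 49 genes had more marked length with daunorubicin and 2, KMT5C and SETD1A, had less. Of the 17631 protein-coding genes with a peak in the window, 87.4% were longer and 12.5% shorter. In the 11548 with an end marked in both libraries, those shares were 87.3% and 12.7%. At least 1.5-fold longer marking was found at 20 of the 49 genes, against 40.5% and 33.5% in those backgrounds, and at least 1.5-fold shorter marking at 0, against 1.09% and 0.398%. The family's median was 10245 bp with daunorubicin and 6863 bp without, with a median ratio of 1.40 against 1.34 and 1.32. The median difference was 2586 bp, against 1312 bp and 1510 bp. These counts and the median ratio are therefore close to what the library pair showed at most genes, while the median difference was larger. The family's marked length was also larger in both libraries: the backgrounds had medians of 6114 and 7309.5 bp with daunorubicin and 4251 and 5332 bp without.

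**Figure D1:**
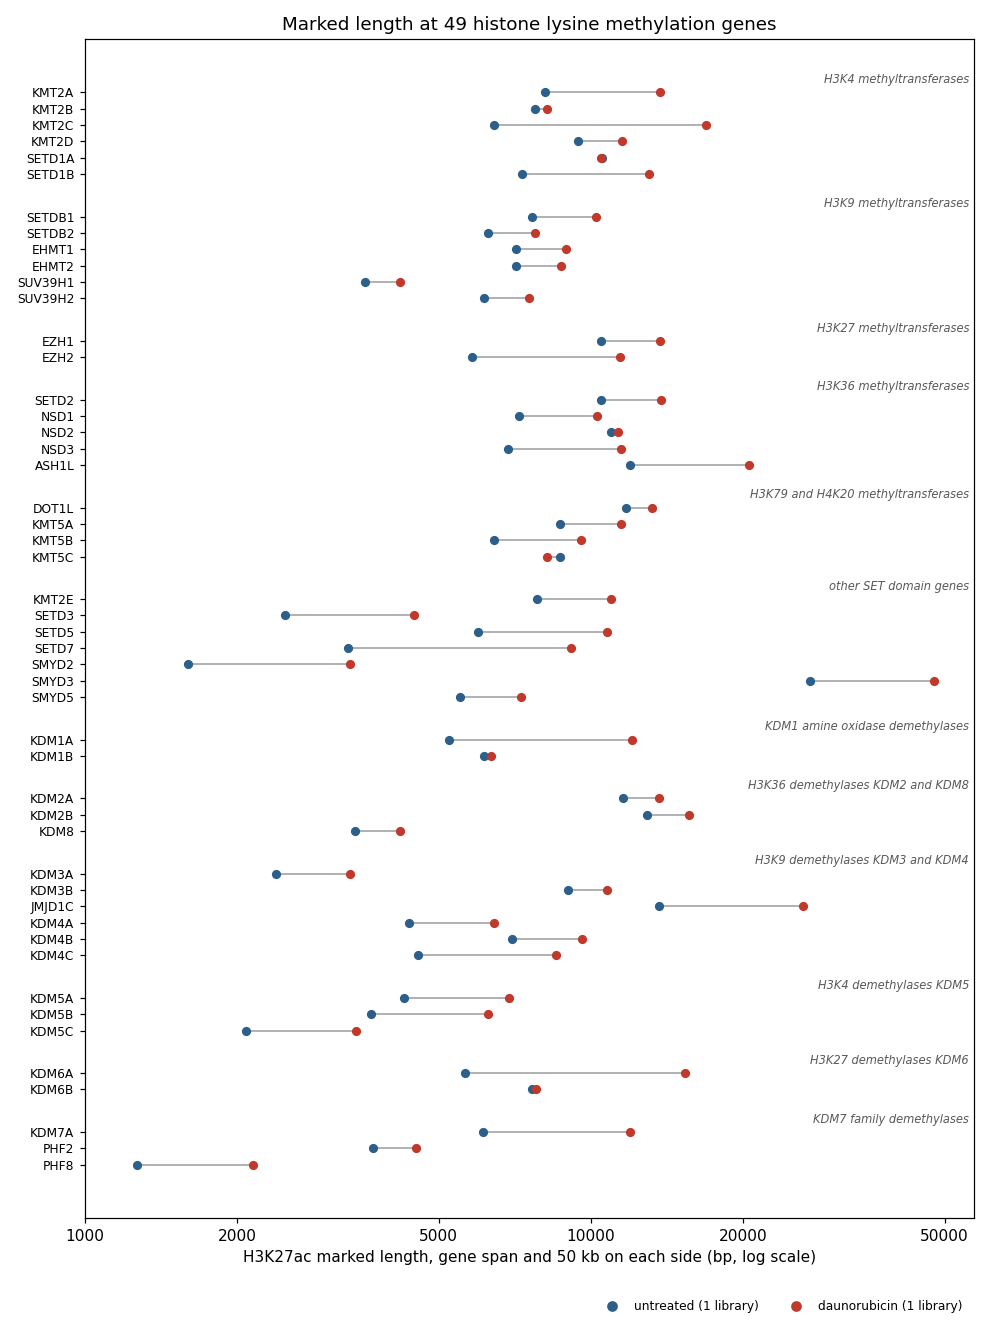
Marked length in bp (log scale) of each of the 49 genes, grouped by role, with a blue point for the untreated and a red point for the daunorubicin library. The red point lies to the right at 47 genes, and the widest relative gaps are those of SETD7, KDM6A, KMT2C and KDM1A.

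Longer genes have longer windows, and the 1.5-fold calls followed gene length. Among the family's genes under 50 kb, 2 of 15 were at least 1.5-fold longer, where 24.4% of genes of that length with an end marked in both libraries were. From 50 to 150 kb the count was 12 of 24 against 46.1%, and over 150 kb it was 6 of 10 against 69%. The family's counts lay near these backgrounds in the middle and upper classes and below the background among short genes. When both lists were limited to their 38626 highest-scoring peaks, 5 family genes were at least 1.5-fold longer, against 13.8% of genes with an end marked in both, and 35 were longer at all, against 64.5%. The 5 genes were KMT2C, SETD1B, SETD3, SETD7 and KDM1A. With equal numbers 12 genes turned from longer to shorter: KMT2B, EHMT1, NSD1, NSD2, KDM1B, KDM2A, KDM2B, KDM3B, KDM4B, KDM5B, KDM5C and KDM6B. A score of at least 43 in both lists turned 8 genes, KMT2B, NSD1, KMT5A, KMT5B, SMYD2, KDM5B and PHF2 to shorter and KMT5C to longer. Narrower or wider windows turned the sign at SETDB1, KDM1B and KDM6B (10 kb), at SETD1A and NSD2 (100 kb), and at SETD1A, SETD1B, SETDB1, SUV39H2, KMT5C and KDM1B (gene span alone).

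**Figure D2:**
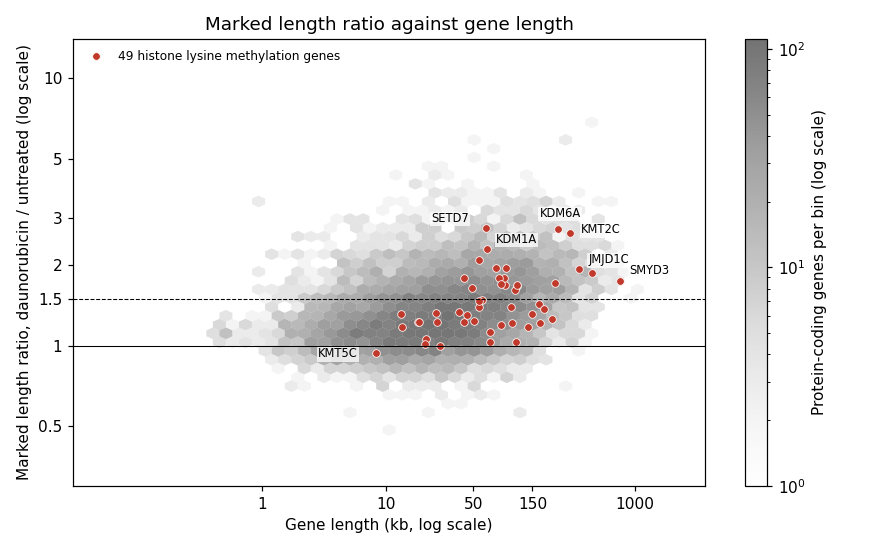
Ratio of marked length, daunorubicin over untreated, against gene length in kb (both log scales). Grey cells count the 11548 protein-coding genes with an end marked in both libraries, red points are the 49 family genes, the solid line is a ratio of 1 and the dashed line 1.5. The red points run from 0.942 at KMT5C to 2.76 at SETD7 and lie within the grey cloud.

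The differences lay away from gene ends. At the family's own ends and start sites, the summed marked length was 110954 bp with daunorubicin and 103283 bp without, a ratio of 1.07, and 5 genes were at least 1.5-fold longer there (10.1% of genes with an end marked in both). Those 5 were EZH1, SETD7, SMYD3, KDM4B and KDM6B. At ends and start sites of other genes in the windows the ratio was also 1.07, and 4 family genes were at least 1.5-fold longer (background 16.7%). Distal marking summed to 266645 bp with daunorubicin and 113979 bp without, a ratio of 2.34, against 1.88 over genes with an end marked in both. Lengths were placed peak by peak, so a shared region can count as distal in 1 list and not in the other, as at KDM6B. The family's median distal length was 3261 bp against 1453 bp, longer at 46 genes and shorter at NSD2, SUV39H1 and KMT5C. Of genes with an end marked in both libraries, 80.4% were longer distally and 10.9% shorter. The median distal difference was 2155 bp in the family and 1074 bp in that background.

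Distal marking was at least 1.5-fold longer at 42 of the 49 genes, against 61.9% of genes with an end marked in both libraries. All 49 family genes had a distal peak in at least 1 library, but only 10546 of those 11548 genes did. With equal numbers of peaks it was 47 and 9770. Genes without a distal peak stayed in all background shares given here, also by length, which lowers these shares. By length the counts were 11 of 15 under 50 kb (background 56.8%), 22 of 24 from 50 to 150 kb (69.6%) and 9 of 10 over 150 kb (79.6%). The family's count lay above the background in each length class, a description of these libraries that has no test. With equal numbers of peaks, 24 genes were at least 1.5-fold longer distally (background 31.3%), 3 at own ends and start sites (7.93%) and 1 at those of other genes (9.86%). That excess then rested on the middle class, with 16 of 24 against 35.0%, while genes over 150 kb had 3 of 10 against 41.8%.

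**Figure D3:**
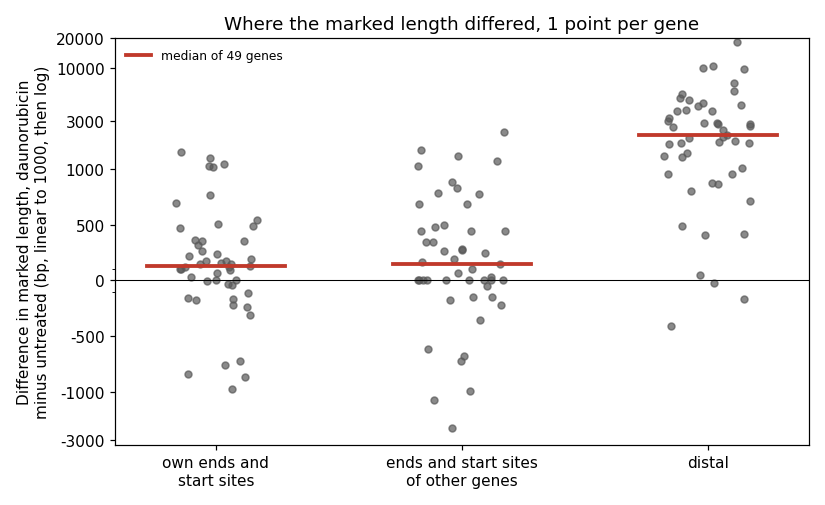
Difference in marked length, daunorubicin minus untreated, at own ends and start sites, at ends and start sites of other genes, and distally, with 1 point per gene and the median as a red bar (axis linear to 1000 bp, then log). The medians are 128, 149 and 2155 bp, and 46 of 49 distal points lie above 0. Of genes with an end marked in both libraries, not drawn, 80.4% were longer distally.

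The windows held 295 regions that both libraries shared, 269 that were particular to the daunorubicin list and 50 to the untreated list, and no region fell in the windows of more than 1 family gene. Of the 269, 240 (89.2%) were distal, 26 lay at another gene and 3 at the family's own ends or start sites. They were short and weak by the authors' score, at a median of 400 bp and a score of 23, where shared regions had 1375 bp and 83. The 50 regions of the untreated list alone were alike, with 82% distal and medians of 332 bp and a score of 21. This split was not made over all regions of the lists, so it cannot be called particular to the family. At least 1 region called only with daunorubicin was present at 47 of the 49 genes, against 84.1% of all genes with a peak in the window and 84.9% of those with an end marked in both. At least 1 region called only without the drug was present at 25 of the 49, against 34.2% and 38%. Both shares lay above backgrounds that were not matched for gene length, and longer windows can hold more regions. Only 15 of the 49 family genes were under 50 kb, against 7784 of the 11548 genes with an end marked in both. Distal regions called only with daunorubicin numbered 2.72 per 100 kb of gene body in the family, against 1.74 over genes with an end marked in both, and 1.82 against 1.56 per 100 kb of flank. Leaving out SMYD3, the gene with the most such regions, gave 2.69 per 100 kb of body. Distal regions called only without the drug were also denser in the family's gene bodies, 0.468 against 0.283 per 100 kb, so the higher density was not limited to the daunorubicin list. It was also not present at every length. Bodies under 50 kb had 0.246 regions called only with daunorubicin per 100 kb against 1.48, but this value rests on 1 region in 15 genes. Flanks of genes over 150 kb had 1.20, from 12 regions, against 1.46. Bodies of longer genes and flanks of genes up to 150 kb were denser than the background, with 2.2 against 1.56 in flanks of genes under 50 kb.

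Among the 6 H3K4 methyltransferases, catalytic subunits of the COMPASS complexes, 5 had longer marking and 3 passed 1.5-fold. For this and every group below, the background over genes with a peak in the window was 87.4% longer and 40.5% at least 1.5-fold longer. KMT2C, which with KMT2D monomethylates H3K4 at enhancers, spans chr7:152134925-152436003 and had 16876 bp marked with daunorubicin and 6417 bp without. Its 9 untreated peaks faced 28 with daunorubicin, and 20 regions were called only with the drug, all distal and 16 of them inside the gene. The strongest of the 20, chr7:152341083-152341589, lay 94414 bp inside the gene with a score of 71. Its paralog KMT2D differed far less, with 11500 bp and 9407 bp. KMT2A, the gene split by 11q23 translocations in acute leukaemia, had 13708 bp and 8097 bp, while KMT2B had 8201 bp and 7751 bp, a difference that turned to -1270 bp with equal numbers of peaks. SETD1A and SETD1B place most H3K4 trimethylation. SETD1B had 13026 bp with daunorubicin and 7291 bp without, and SETD1A had 10473 bp and 10515 bp, the nearest to equal of the whole family. Their signs depended on the window: over the gene span alone the difference was 348 bp at SETD1A and -452 bp at SETD1B, and with a 100 kb window it was 584 bp at SETD1A. SETD1B also held the second highest scoring region called only in untreated cells, chr12:121793853-121794272 with a score of 92, at the ends of LINC01089 and RHOF.

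All 6 H3K9 methyltransferases had longer marking with daunorubicin, and 0 of 6 passed 1.5-fold. SETDB1, which silences transposable elements with H3K9 trimethylation, had 10245 bp with daunorubicin and 7644 bp without. The related SETDB2 had 7749 bp and 6265 bp. EHMT1 had 8941 bp and 7117 bp and its partner EHMT2, with which it forms the euchromatic H3K9 dimethylase, 8713 bp and 7121 bp. Of the pericentromeric enzymes, SUV39H1 had 4192 bp and 3575 bp and SUV39H2 had 7555 bp and 6137 bp. The differences of the 6 genes ran from 617 to 2601 bp, and EHMT1 turned to -323 bp with equal numbers of peaks.

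EZH2 and EZH1, alternative catalytic subunits of polycomb repressive complex 2 for H3K27 methylation, both had longer marking. EZH2 (chr7:148807383-148884291) had 11405 bp with daunorubicin and 5824 bp without, with 8 regions called only with the drug, all distal. Its start site was among the strongest of both lists, with scores of 317 and 474. The EZH2 call rested on weak regions: with a score of at least 43 in both lists it had 5022 bp and 4865 bp, a difference of 157 bp, and with equal numbers of peaks 7835 bp and 5824 bp, both under 1.5-fold. EZH1 had 13673 bp and 10450 bp, of which 3285 bp and 2016 bp lay at its own ends and start sites. Most of the net difference was distal at both, with 7858 bp against 2864 bp at EZH2 and 4127 bp against 970 bp at EZH1.

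The 5 H3K36 methyltransferases had longer marking, 2 of them by at least 1.5-fold. ASH1L, a trithorax enzyme for H3K36 dimethylation, had 20521 bp with daunorubicin and 11941 bp without, with 14 regions called only with the drug and 0 called only without it. NSD3 had 11479 bp and 6863 bp and NSD1 10297 bp and 7206 bp. NSD2, whose overexpression by translocation drives a subset of myelomas, had 11329 bp and 10954 bp, and its distal length was slightly shorter (4838 bp against 5007 bp). SETD2, the trimethylase that travels with elongating RNA polymerase II, had 13773 bp and 10456 bp. Among these 5, NSD2 alone had fewer peaks with daunorubicin, 9 against 10. Once the lists had equal numbers of peaks, 0 of 5 passed 1.5-fold and 2 were shorter, NSD1 by a difference of -1442 bp and NSD2 by -1940 bp.

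For H3K79 and H4K20, 0 of 4 genes passed 1.5-fold. DOT1L, the H3K79 enzyme on which KMT2A-rearranged leukaemias depend, had 13188 bp with daunorubicin and 11744 bp without, and its own ends had 1686 bp and 2527 bp. KMT5A, which monomethylates H4K20, had 11485 bp and 8678 bp. KMT5B and KMT5C add further methyl groups to H4K20 and differed in sign. KMT5B had 9546 bp and 6437 bp, and KMT5C had 8180 bp and 8686 bp with 3 regions called only in untreated cells and 0 only with the drug. KMT5C is also the shortest of the 49 genes, chr19:55339876-55348121, in a window shared with the marked ends of RPL28, IL11 and TMEM150B.

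The other 7 SET domain genes, several of which are known mainly for substrates other than histones, all had longer marking and 5 passed 1.5-fold. SETD7, an H3K4 monomethylase that also modifies transcription factors, had the highest ratio of the family, 2.76, with 9114 bp with daunorubicin and 3308 bp without. At its own start site the mark covered 2218 bp with daunorubicin and 1189 bp without, and 7 distal regions were called only with the drug, the widest at chr4:139484456-139485899. SMYD3 is the longest gene of the set (chr1:245749347-246507279) and had the largest absolute difference, with 47568 bp and 27131 bp and 25 regions called only with daunorubicin. SMYD2, which methylates p53, had 1 untreated peak, at its start site, and 4 with daunorubicin (1597 bp and 3337 bp). SETD3, an actin histidine methyltransferase, had 4464 bp with daunorubicin and 2486 bp without. SETD5 had 10733 bp and 5973 bp. KMT2E had 10963 bp and 7826 bp although its own start-site mark was shorter, 2934 bp against 3659 bp. SMYD5 had 7266 bp and 5512 bp.

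The 19 demethylase genes all had longer marking, and 9 passed 1.5-fold, as did 11 of the 30 methyltransferase genes, of which 28 were longer. Over genes with an end marked in both libraries, 87.3% were longer and 33.5% at least 1.5-fold longer. With equal numbers of peaks, 11 demethylase genes were longer and 8 shorter, and 24 methyltransferase genes were longer and 6 shorter. In the same background 64.5% were then longer. The excess of longer over shorter genes was thus smaller in both classes once the lists had equal numbers of peaks, and the classes were not tested against each other.

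KDM1A (LSD1), the flavin-dependent H3K4 demethylase that is a drug target in myeloid leukaemia, had 12043 bp with daunorubicin and 5246 bp without. The gene lies at chr1:23019468-23083689, and its start site scored 381 and 526, near the top of both lists. Of 10 regions called only with the drug, 7 lay upstream of the gene, the strongest at chr1:22997174-22997676, 21792 bp from the start, with a score of 74. KDM1B, the second amine oxidase, had 6333 bp and 6147 bp with 8 peaks in each library. The paralogs thus differed, with KDM1A near the top of the family by ratio and KDM1B near the bottom, at 1.03, with a difference of -811 bp under equal numbers of peaks.

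KDM2A and KDM2B, H3K36 demethylases that bind unmethylated CpG islands, had 13619 bp and 15631 bp with daunorubicin and 11562 bp and 12883 bp without. KDM2A had the strongest region called only in untreated cells, chr11:67118396-67118815 with a score of 98, which ended 448 bp upstream of its start. Its start-site peak itself was present in both libraries, with scores of 206 and 328. The KDM2B window in turn held the strongest region called only with daunorubicin, chr12:121391501-121392291 with a score of 106, at an end of the uncharacterised gene LOC124903037. KDM8 had 4190 bp and 3413 bp. KDM2A and KDM2B were shorter with equal numbers of peaks, by differences of -1474 bp and -638 bp.

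**Figure D4:**
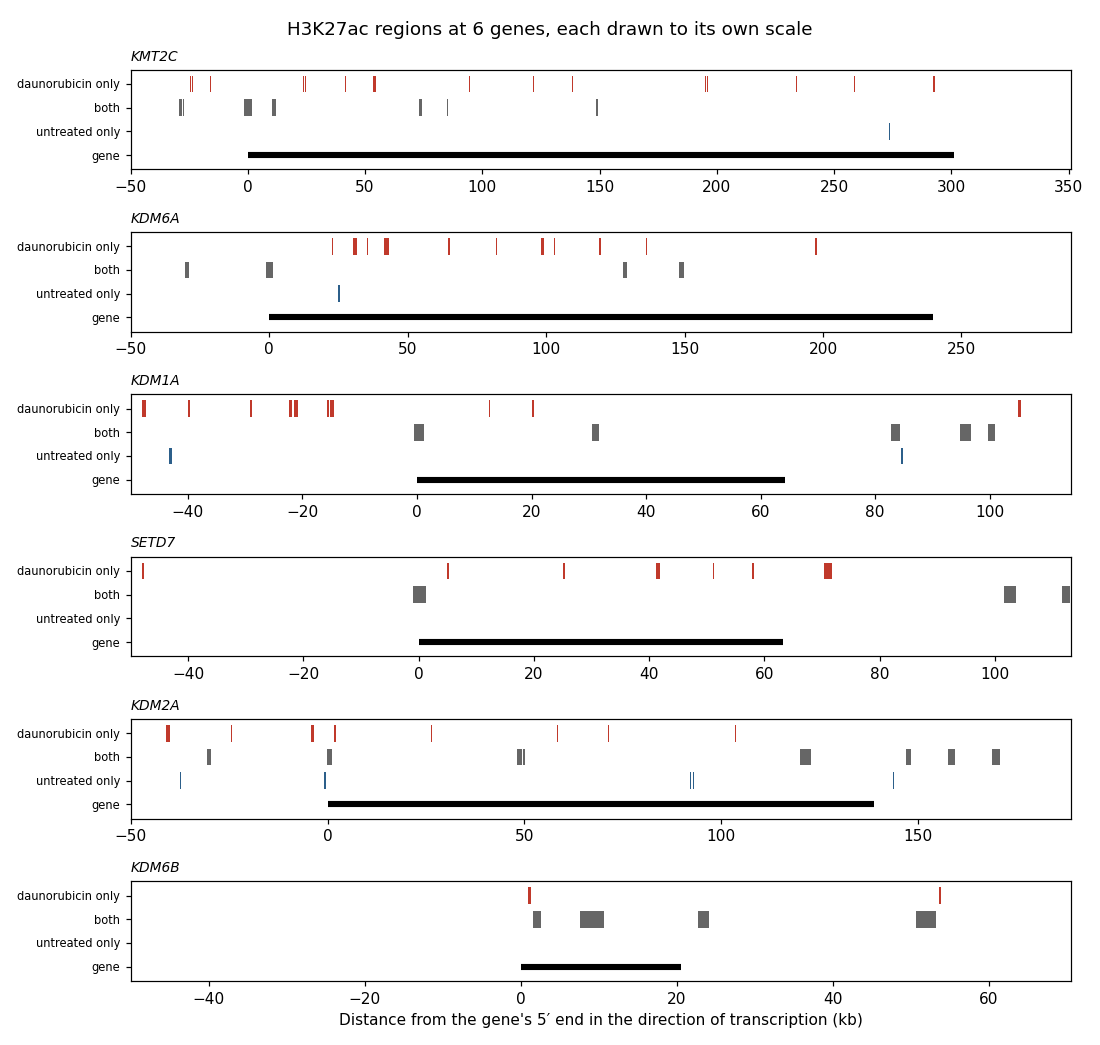
H3K27ac regions called with daunorubicin only (red), in both libraries (grey) or in untreated cells only (blue) at 6 genes, by distance in kb from the 5′ end of the gene (black bar), each gene to its own scale. KMT2C and KDM6A carry 20 and 13 regions called only with daunorubicin, while KDM6B carries 2, one of them near its 5′ end, and KDM2A a blue region just upstream of its start.

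The 6 demethylases of the KDM3 and KDM4 families, directed at H3K9, had longer marking, and JMJD1C and KDM4C passed 1.5-fold. JMJD1C, a KDM3 paralog needed by several leukaemia lines, had 26224 bp with daunorubicin and 13601 bp without, with 18 regions called only with the drug, all distal. KDM3B had 10773 bp and 9011 bp, and KDM3A, a gene induced by hypoxia, had 3333 bp and 2388 bp. KDM4A had 6434 bp and 4361 bp, KDM4B had 9581 bp and 6995 bp, and KDM4C had 8513 bp and 4544 bp. At KDM4B a region called only with daunorubicin lay 598 bp upstream of the start, with a score of 22. Of these 6 genes, 0 passed 1.5-fold with equal numbers of peaks, and KDM3B (-386 bp) and KDM4B (-943 bp) were shorter.

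All 3 KDM5 genes, demethylases of H3K4 trimethylation, passed 1.5-fold, as did 40.5% of all genes with a peak in the window. KDM5A had 6886 bp with daunorubicin and 4271 bp without. KDM5B had 6270 bp and 3678 bp, but its own start-site mark was shorter with the drug, 1825 bp against 2686 bp. KDM5C, on chromosome X, had 3436 bp and 2083 bp. With equal numbers of peaks 0 of 3 passed 1.5-fold and 2 of 3 were shorter, KDM5B by a difference of -568 bp and KDM5C by -150 bp.

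The H3K27 demethylases KDM6A and KDM6B, which oppose EZH2 on the residue that H3K27ac occupies, had different layouts. KDM6A (UTX), a tumour suppressor in leukaemia at chrX:44873188-45112779, had 15346 bp with daunorubicin and 5626 bp without. Its start-site mark was similar, 2200 bp and 2417 bp, and 13 regions called only with the drug all lay inside the gene, the widest at chrX:44914608-44916375. KDM6B (JMJD3), which inflammatory signals induce, had 7794 bp and 7646 bp over chr17:7834217-7854796 and its flanks. KDM6B was the exception among the 46 genes: the peak chr17:7835158-7835512, with a score of 19, began 941 bp past the start and was called only with daunorubicin. Next to it the region chr17:7835781-7836808 was called in both libraries, with scores of 124 and 39, so untreated cells had a mark close to that start as well. The difference at KDM6B turned to -207 bp with equal numbers of peaks. With gene ends taken as 2.5 kb, 0 family genes had an end marked only with daunorubicin.

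In the KDM7 family, which removes H3K9 methylation and bears a PHD finger for H3K4 trimethylation, 3 of 3 genes were longer and 2 passed 1.5-fold. KDM7A had 11963 bp with daunorubicin and 6111 bp without, with 9 distal regions called only with the drug. PHF8, mutated in an X-linked intellectual disability, had the shortest marking of the family, 2144 bp and 1268 bp, and no distal peak in untreated cells. PHF2 had 4517 bp and 3712 bp and likewise no untreated distal peak. No distal untreated peak was found either at EHMT2, SMYD2 or KDM6B. KDM6B, however, had 0 distal regions called only with daunorubicin. Its 2089 bp of distal daunorubicin marking therefore lay in regions marked in both libraries. All of its 7646 untreated bp counted at ends and start sites of other genes.

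Genes that encode partners of these enzymes were read in the same way, against the backgrounds of 87.4% longer and 40.5% at least 1.5-fold longer given above. Of 14 further COMPASS subunits, 11 were longer with daunorubicin, 3 shorter and 1 at least 1.5-fold longer, HCFC2 (5913 bp and 3939 bp), with a median difference of 489 bp. The largest difference among them was that of ASH2L, a core subunit of all COMPASS complexes, with 18224 bp and 15407 bp. WDR5, the common scaffold, had 4599 bp with daunorubicin and 4377 bp without, and RBBP5 had 4712 bp and 5811 bp, both named after their values were seen. Among 10 genes of polycomb repressive complex 2, 8 were longer, 1 shorter and 5 at least 1.5-fold longer, with a median difference of 2532 bp. The 5 were EED, RBBP7, JARID2, AEBP2 and MTF2. JARID2, a DNA-binding subunit that guides the complex, had 30341 bp with daunorubicin and 16162 bp without and 18 regions called only with the drug. The core subunit EED had 10594 bp and 5900 bp, and SUZ12, also named after its values were seen, had 5925 bp and 5575 bp. Of these 10 genes, 8 were longer with equal numbers of peaks, and 0 passed 1.5-fold. Of 12 genes of the H3K9 and LSD1 complexes, 10 were longer, 2 shorter and 1 at least 1.5-fold longer, CBX1 (9671 bp and 5456 bp). RCOR1, the CoREST scaffold of KDM1A, had 16069 bp and 11866 bp, but a difference of -1935 bp with equal numbers of peaks, where 6 of the 12 genes were longer and 6 shorter. RCOR3, with the largest difference of the 12, had 15347 bp and 10408 bp, and a difference of 2683 bp with equal numbers of peaks. Of 15 other methyltransferase and demethylase genes outside the list, 11 were longer, 2 were shorter and 2 had no peak, and the 3 at least 1.5-fold longer were SETMAR, SMYD1 and PRDM2.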

How the data were processed

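Peaks of 2 H3K27ac and 2 input ChIP-seq libraries were used. The tools named are MACS2 2.1.1, Bowtie2 2.3.4.3 and deepTools 3.2.1, with both hg19 and hg38, per the submitters' processing notes, without settings or a peak threshold. For each library the authors deposited a separate peak list with a score per peak, whose formula is unknown here. Positions were read as hg38, and gene spans, strands and promoters came from RefSeq tables of GRCh38.p14. Marked length is the number of bp under peaks in the gene span and 50 kb on each side. Regions are merged overlapping peaks (1 bp), and ends are within 1 kb. A gene was called longer or shorter from a ratio of 1.5, which has no test with 1 library per condition. More peaks are called from deeper or better enriched libraries, and depth is unknown. A gene with peaks in 1 library only counts as called. The members and lists were chosen with earlier results of these data known. The rule for named genes took all 49 members and, in each partner and comparison list, up to 4 genes that differed most. Not every such gene was named, and NCOA1 and NCOA3 are among those left out. RBBP7 and the genes said to be named or chosen after their values were seen depart from the rule. Coordinates count from 1. Alternatives were a stricter score, equal numbers of peaks, removal of peaks on input peaks, other windows (10 kb, 100 kb, none), ends of 2.5 kb, a reciprocal overlap of 50% and a gap of 1 kb. The split by place was added after seeing the data. Overlap functions were tested on simulated data against bedtools 2.31.1, in Python 3.11.15 with numpy 2.4.6. A marker gene of the label check is not reported here.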

Additional observations from a re-analysis of the deposited data

How the results depend on the processing

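Removing peaks on input peaks moved no value of the family. With 0 input peaks in its windows, this setting was no check of those values. Backgrounds below are genes with a peak in the window under the same setting, unless said otherwise. With a score of at least 43 in both lists, 8 genes were shorter (background 21.3%). The median difference was 1210 bp, against 849 bp. There were 99 regions found only with the drug and 16 only in untreated cells. At other genes' ends and start sites, 1 gene was at least 1.5-fold longer (12.9% of genes with an end marked in both). With equal numbers of peaks, 14 genes were shorter (background 34.6%) and 5 at least 1.5-fold longer (19.3%). The median difference was 853 bp, against 399 bp. There were 76 regions found only with the drug and 101 only in untreated cells, the reverse order of the full lists. By place, 3 genes (own), 1 (other genes) and 24 (distal) were at least 1.5-fold longer. Those shares were 7.93%, 9.86% and 31.3% of genes with an end marked in both. No end was marked only with daunorubicin (0) under these settings or with ends of 2.5 kb. In a 10 kb window, 5 genes were shorter (background 20.3%) and 176 regions were called only with daunorubicin. The median difference was 925 bp, against 538 bp. Over the gene span alone, 4 genes were shorter (background 25.7%) and 1 at least 1.5-fold shorter (5.30%). The median difference was 770 bp, against 292 bp, and 159 and 27 regions were called only with and only without daunorubicin. At ends of other genes, 2 genes were at least 1.5-fold longer (5.39% of genes with an end marked in both). A reciprocal overlap of 50% gave 131 regions only without the drug. Among genes called 1.5-fold longer, signs turned at SETD1B over the span alone (-452 bp), at SMYD2 with the stricter score (-163 bp) and at KDM5B with both limits on peaks (-364 and -568 bp), and at KDM5C with equal numbers (-150 bp). The cause was not tested. Over all 49 genes the sign turned at 8 with the stricter score, 12 with equal numbers, 3 at 10 kb, 2 at 100 kb and 6 over the span alone. No paired analysis was possible because each condition had 1 library. Peak lists hold no depth, so weak regions missed in the shorter list may be below its threshold and not absent.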

Other observations

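The enzymes that write and erase histone acetylation were read beside the methylation genes. Of 35 such genes, 26 had longer marking with daunorubicin, 9 shorter, and 11 were at least 1.5-fold longer, with a median difference of 1400 bp; of all genes with a peak in the window, 87.4% were longer and 40.5% at least 1.5-fold longer. The paralogous acetyltransferases that deposit H3K27ac differed: CREBBP had 9940 bp with daunorubicin and 5439 bp without, and EP300 had 4720 bp and 5107 bp. HDAC9, a class IIa deacetylase, had 21673 bp and 8746 bp and 21 regions called only with the drug. KAT6B, a MYST acetyltransferase, had 11814 bp and 3954 bp. With equal numbers of peaks, 18 of the 35 genes were longer, 17 shorter and 4 at least 1.5-fold longer. These examples were chosen after their values were seen, and no difference between the lists was tested.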
